A study of Mus musculus with 15 samples.

Results

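The last step of a conditional *Pou5f1* deletion was examined in mouse embryonic stem cells (ESCs), from 24 h to 36 h after the addition of 4-OHT. Its members are the 4 libraries that the sample labels place at these times, 2 at 24 h and 2 at 36 h, out of 15 libraries in the series. Both groups had the genotype Oct4Fl/-; CAG CreER on a Mixed 129SV C57BL/6 background, were given 500 nM 4OHT, and by their labels differed in the hours of treatment alone. In these cells 1 *Pou5f1* allele is null from the start and the other is floxed, and a Cre recombinase that waits for 4-OHT is driven by the broadly active CAG promoter. The labels give N2B27 medium with the MEK inhibitor PD03 (1 µM), the GSK3 inhibitor Chiron (3 µM) and mLIF. For cells with this *Oct4* genotype the study also describes a switch to serum medium with LIF when 4OHT was added, and whether these libraries had that switch is not stated in the sources used here. All libraries were made from total RNA after ribosomal RNA was depleted. The controls of this step are therefore cells that had already been losing *Pou5f1* for 24 h, not untreated cells. The 6 libraries of the same cells at 0, 12 and 18 h were fitted with them and serve as background. The origin of replicates 1 and 2 is not given, so p-values measure the spread between these samples, which may be technical.

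*Pou5f1* encodes OCT4, the POU-domain transcription factor that keeps ESCs pluripotent. OCT4 holds down *Cdx2* and with it the programme of the trophectoderm, the epithelium that forms the placenta, and ESCs that lose OCT4 take on trophoblast features. OCT4 also acts with SOX2 and NANOG at the enhancers of pluripotency genes, whose mRNAs decay at different rates once transcription stops. The late step asks which genes were still changing once *Pou5f1* mRNA itself had nearly levelled, and which had already stopped.

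The libraries held 29642940 and 25342684 counted reads at 24 h and 25753834 and 21655083 at 36 h. The first principal component (65% of the variance) set the 36 h libraries apart from the 24 h ones, at 23.5 and 25.5 against 6.06 and 5.72. On the second component (9.61%) the 36 h libraries stood at 6.17 and 5.41 and the 24 h libraries at -7.20 and -8.40. Mitochondrial genes took 9.95% and 10.6% of the reads at 24 h and 14.4% and 17.3% at 36 h, above every earlier library (8.54% to 12.8%). Levels are given as CPM, reads scaled to a common library total, after TMM scaling, which sets most genes to no change. They compare 1 gene between libraries, not genes of different length. In bulk RNA a change per cell and a change in the share of cells that express a gene cannot be told apart.

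The targeted gene came first. *Pou5f1* (ENSMUSG00000024406, GRCm38 chr17:35506018-35510772, plus strand) stood at 136 and 138 CPM at 24 h and at 115 and 127 CPM at 36 h. The 36 h libraries were both lower, and the log2 fold change was -0.18 (SE 0.046, adjusted p 0.00888, edgeR quasi-likelihood test over all genes). This call rested on few libraries: without replicate 1 of 24 h the adjusted p was 0.0599, without replicate 2 of 24 h it was 0.0773, and without replicate 1 of 36 h it was 0.186, with a log2 fold change of -0.10. The 12 h before had brought a fall of 0.75 on the log2 scale, and the steps differed by 0.57 (SE 0.078, adjusted p 9.1e-05). At 0 h *Pou5f1* had stood at 330 and 324 CPM. The log2 fold change at 36 h against 0 h was -1.43, so the level had nearly settled well above 0. *Cchcr1*, which lies downstream on the same strand, stood at 130 and 126 CPM at 24 h and at 127 and 128 CPM at 36 h (log2 fold change -0.01, adjusted p 0.958), after a rise of 0.75 over the 12 h before. Since reads were summed over each gene, the exons of *Pou5f1* that remained cannot be read from them.

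The transcriptome moved on while *Pou5f1* hardly did. Of 18969 genes tested, 2784 (14.7%) passed an adjusted p of 0.05, with 1541 higher at 36 h (8.12%) and 1243 lower (6.55%). Most of these changes were small, with a median absolute log2 fold change of 0.31 and quartiles of 0.21 and 0.49. Among the called genes 142 (0.749% of those tested) moved by 1 or more on the log2 scale, 67 up and 75 down. Fewer genes were called with 1 library at 24 h, 1539 without replicate 1 and 1491 without replicate 2. Both 36 h libraries lay on the same side of both 24 h libraries in 55.1% of all tested genes, so a lack of overlap alone says little here. The median over all tested genes was 0.004. The direction of the calls rested on the scaling, since with total counts as the library size the median of all genes moved to -0.10 and the fraction of rises among the calls went from 55.4% to 17.6%. With total counts that leave out mitochondrial genes, a setting added after the data were seen, the median was -0.01 and that fraction 48.2%. Genes with a mean of at least 10 CPM were called in 22.6% of cases and those below it in 6.84%. The counts called in each gene list below are to be set beside these shares.

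**Figure D1:**
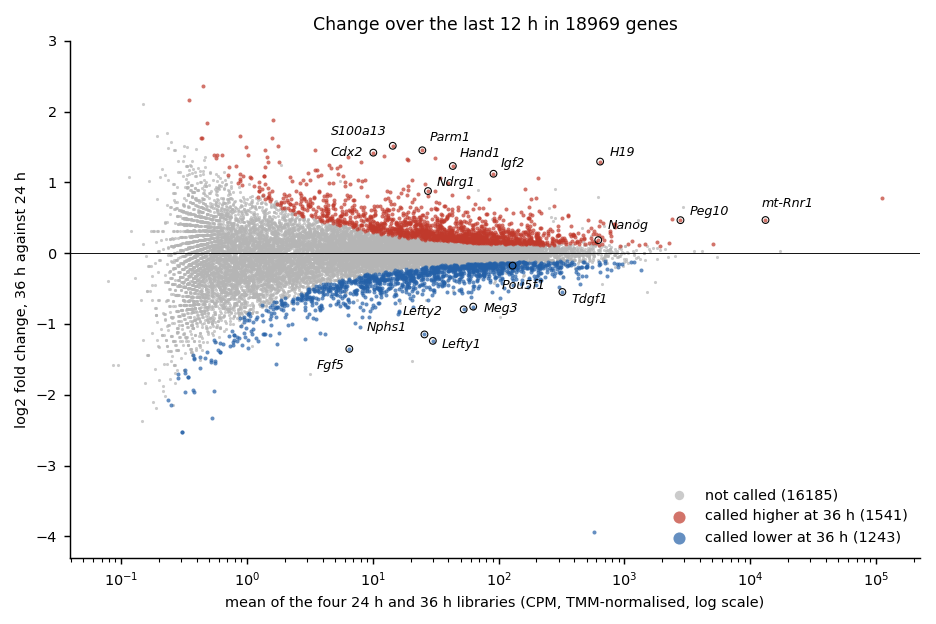
Log2 fold change at 36 h against 24 h (vertical axis) plotted against the mean CPM of the 4 libraries (horizontal axis, log scale) for 18969 genes, with 1541 genes called higher in red, 1243 called lower in blue and the rest in grey. Named genes are ringed: *H19*, *Cdx2* and *Hand1* lie above 1 and *Lefty1* and *Fgf5* below -1, while *Pou5f1* lies close to 0.

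Trophectoderm genes were still rising over these 12 h. In a short list of 5 trophectoderm genes 3 rose and none fell, with a list median of 0.61. *Cdx2* (ENSMUSG00000029646, chr5:147300805-147307270, minus strand), the caudal-type homeobox factor that directs trophectoderm fate, stood at 5.42 and 5.58 CPM at 24 h and at 14.5 and 14.9 CPM at 36 h. Both 36 h libraries were thus well above both 24 h libraries, and the log2 fold change was 1.42 (SE 0.12, adjusted p 3.73e-09). *Hand1* (chr11:57828705-57832818, minus strand), a bHLH factor needed for trophoblast giant cells, stood at 25.2 and 26.5 CPM and then at 59.5 and 61.9 CPM (log2 fold change 1.23, SE 0.070, adjusted p 1.19e-12). *Krt7*, a simple-epithelial keratin of trophoblast, went from 10.6 and 10.5 CPM to 15.7 and 16.6 CPM (log2 fold change 0.61, adjusted p 2.16e-05). *Gata3*, at 4.28 and 3.04 CPM and then 4.46 and 4.57 CPM, did not pass (log2 fold change 0.29, adjusted p 0.268). *Gcm1*, which drives the fusion of trophoblast cells into syncytiotrophoblast, had levelled, at 13.9 and 13.8 CPM at 24 h and 14.1 and 12.98 CPM at 36 h (log2 fold change -0.03, adjusted p 0.856).

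A wider set of 22 trophoblast genes gave calls in 1 direction. Of the 21 that were tested, 16 rose and none fell, with a median of 0.56 against 0.004 over all genes, and over all settings 13 to 16 rose and none fell. Among the transcription factors, *Elf5*, which maintains trophoblast stem cells, had the largest value at 1.65 (adjusted p 0.00157), from 0.357 and 0.500 CPM to 1.37 and 1.31 CPM. *Esx1* went from 2.73 and 3.62 CPM to 7.67 and 6.71 CPM (log2 fold change 1.20), and *Ascl2*, an imprinted factor of the ectoplacental cone, from 3.47 and 2.92 CPM to 6.31 and 6.51 CPM (0.99). *Msx2* (0.80), *Gata2* (0.69), *Dlx3* (0.65), *Eomes* (0.44), *Tead4* (0.35) and *Ets2* (0.26) also rose.

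The X-linked homeobox genes *Rhox6* and *Rhox9*, named for their reproductive tissues, both rose. *Rhox6* was at 18.2 and 17.1 CPM at 24 h and at 36.6 and 32.7 CPM at 36 h (log2 fold change 0.98, SE 0.075, adjusted p 4.25e-10), and *Rhox9* was at 12.9 and 11.3 CPM and then at 24.4 and 20.8 CPM (0.90). Of 5 *Rhox* genes tested, the third call was *Rhox5* at 0.29. Among signalling genes, the ligand *Wnt7b* rose from 21.2 and 22.9 CPM to 39.6 and 41.2 CPM (0.88), and *Fgfr2*, the receptor through which FGF4 sustains trophoblast stem cells, from 58.0 and 57.9 CPM to 81.0 and 82.3 CPM (0.49). The keratin pair *Krt8* and *Krt18* rose by 0.58 and 0.56. Not called were *Tfap2c* (0.07), *Tfap2a* (-0.91, at under 1 CPM), *Plac1* (0.44), *Ovol1* (0.48) and *Lgals3* (0.21), and *Psg17* was too low to test.

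The epithelial side of the same fate moved less evenly. Of 19 tested junction and transport genes of the trophectoderm epithelium, 9 rose, with a median of 0.14. Under total-count scaling 6 rose and 5 fell, with a median of 0.04, and without replicate 1 or replicate 2 of 24 h 6 rose. Claudins make the seal of the tight junction, and *Cldn3* rose by 0.56 and *Cldn4* by 0.50, the latter from 143 and 148 CPM to 197 and 214 CPM. *Dsp*, the plaque protein of desmosomes, stood at 152 and 151 CPM and then at 211 and 205 CPM (0.46, adjusted p 8.54e-09). The glucose transporter *Slc2a3* stood at 2052 and 1966 CPM and then at 2785 and 2818 CPM (0.48, adjusted p 3.1e-10). Adhesion genes that ESCs also express did not pass, among them *Cdh1* at -0.03, *Epcam* at -0.05 and *Tjp1* at 0.05.

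**Figure D2:**
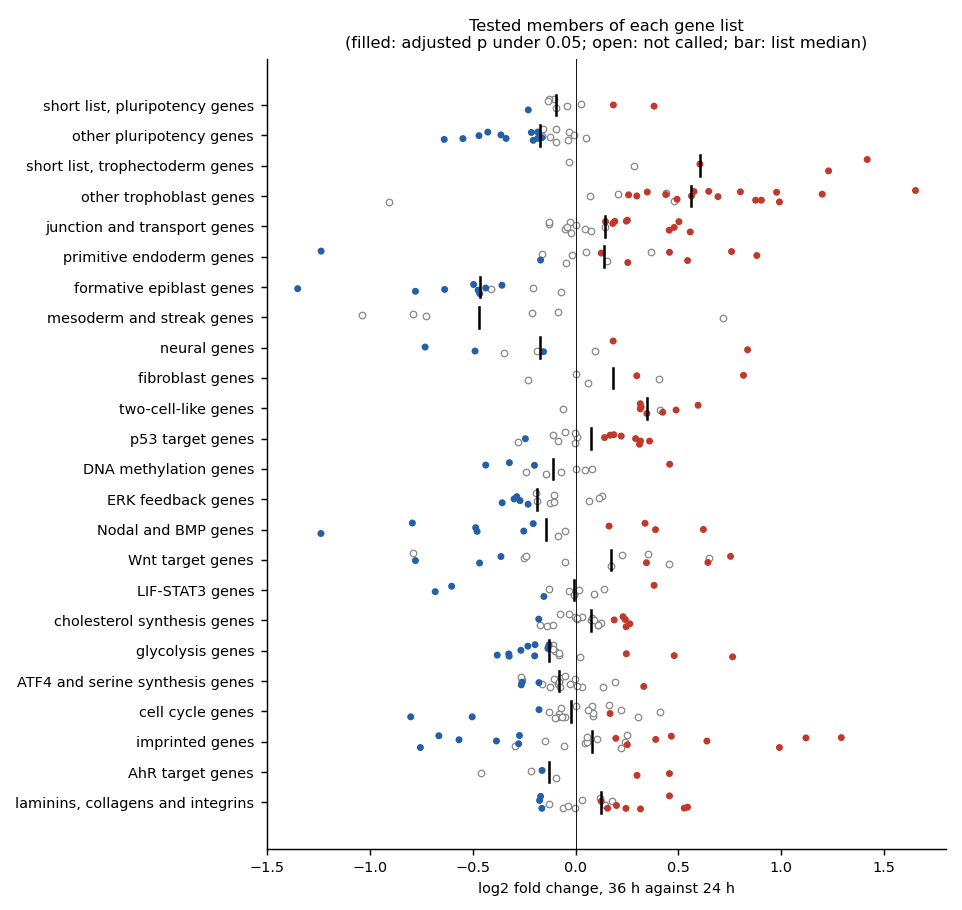
Log2 fold change at 36 h against 24 h (horizontal axis) of every tested member of each gene list (rows), with red and blue points for genes called higher or lower, open points for genes not called and a black bar at the list median. The medians of the trophectoderm and trophoblast lists lie to the right of 0, at 0.61 and 0.56, with 1 member of each to the left, and the median of the formative epiblast list lies to the left, at -0.47.

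The promoters of *Cdx2* and *Zfp42* are shown because each holds the octamer, the sequence that POU factors such as OCT4 bind, and the genes went opposite ways. Each line gives the 250 bases before the start, 5′ to 3′ on the strand of the gene, from RefSeq on GRCm38.p6 (chr5:147307250-147307499, minus strand, and chr8:43307010-43307259, minus strand), with matches to a searched motif in capitals.
*Cdx2* promoter: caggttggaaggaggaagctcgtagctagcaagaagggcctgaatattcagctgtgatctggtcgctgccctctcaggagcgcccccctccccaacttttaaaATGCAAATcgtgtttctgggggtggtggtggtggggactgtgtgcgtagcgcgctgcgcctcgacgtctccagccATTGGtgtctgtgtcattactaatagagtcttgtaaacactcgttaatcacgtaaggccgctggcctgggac
*Zfp42* promoter: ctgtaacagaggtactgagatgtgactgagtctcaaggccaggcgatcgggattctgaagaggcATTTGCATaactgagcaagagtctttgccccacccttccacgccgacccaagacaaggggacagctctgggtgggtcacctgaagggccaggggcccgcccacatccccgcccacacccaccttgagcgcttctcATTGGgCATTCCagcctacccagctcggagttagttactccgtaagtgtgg
In *Cdx2* the octamer begins 147 bases before the start on the strand of the gene, and a CCAAT box on the other strand begins 72 bases before it. In *Zfp42* the octamer lies on the other strand, 186 bases before the start, followed by a CCAAT box on that strand at 51 bases and a TEAD motif at 45 bases. The motifs searched, on both strands, were the octamer ATGCAAAT, the SOX motif ATTGTT, the TEAD motif CATTCC, the GATA motif AGATAA, the E-box spelled CACGTG, the box named after its letters CCAAT and the cAMP response element TGACGTCA. No matches overlapped in these windows. Of the 11004 tested genes with a RefSeq window of 250 bases before to 50 after the start, 1.31% held the octamer, 12.1% the TEAD motif and 38.7% the CCAAT box. A match is a description of letters, not a bound site. The windows covered 58% of the tested genes, with 1068 genes called higher and 762 called lower among them. The octamer was held by 1.4% of those called higher and 1.97% of those called lower, 15 genes each. For the TEAD motif these shares were 12.1% and 12.1%, and for the CCAAT box 39.9% and 35.2%. A difference between them was not tested.

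The largest rises went beyond trophoblast factors. *S100a13* (chr3:90514435-90524581, plus strand), a calcium-binding protein that takes part in the export of FGF1, was the first of them among called genes with a mean of at least 50 counts, at 7.95 and 7.003 CPM at 24 h and 23.3 and 19.5 CPM at 36 h (log2 fold change 1.52, SE 0.11, adjusted p 6.42e-11). Its neighbour *S100a1* (chr3:90511034-90514392, minus strand), another calcium-binding protein, starts 43 bases away and is read in the opposite direction. It stood at 1.88 and 1.85 CPM and then at 5.02 and 5.202 CPM (1.45, adjusted p 7.16e-07), so both genes of this head-to-head pair rose. Of the 6 *S100* genes tested, *S100a6* was the other call, at 0.25.

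The rest of the largest rises were a mixed group. *Parm1*, a mucin-like membrane protein, stood at 13.7 and 12.8 CPM and then at 37.0 and 35.7 CPM (1.45), and *Pth1r*, the receptor of parathyroid hormone-related protein, at 6.65 and 7.04 CPM and then at 18.0 and 17.3 CPM (1.37). *Rab20* (1.36), *Lcp1* (1.33), which encodes the actin-bundling L-plastin, *Lhfpl2* (1.32), *Tmprss2* (1.29), a membrane serine protease, and *Pdlim4* (1.24) followed, together with *3830417A13Rik* on the X chromosome (1.34). In each of these genes both 36 h libraries lay above both 24 h libraries, as the rule for naming them required. All 12 of the largest rises, *Cdx2* and *H19* included, kept an adjusted p under 0.05 under every other scaling and filter and with DESeq2. Against a log2 fold change of 1, glmTreat called 4 genes in all. The lowest log2 fold change of the 12 in any setting was 1.13 (*Pdlim4*). They were chosen by their calls in these same libraries, so this is not independent support.

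Imprinted genes, which are read from 1 parental copy and many of which act in placental growth, included the rise with the smallest p. *H19* (chr7:142575529-142578143, minus strand), a long noncoding RNA, stood at 376 and 368 CPM at 24 h and at 921 and 901 CPM at 36 h (log2 fold change 1.29, SE 0.047, adjusted p 9.76e-16). *Igf2*, the fetal growth factor that starts 88673 bases from *H19* on the same strand, stood at 57.5 and 57.4 CPM and then at 135 and 114 CPM (1.12, SE 0.060, adjusted p 1.11e-12). These neighbours are normally read from opposite parental copies, and total counts do not show which copy gave the reads. *Peg10*, a retrotransposon-derived gene needed for the placenta, stood at 2331 and 2352 CPM and then at 3347 and 3121 CPM (0.47), and its neighbour *Sgce* rose by 0.64. *Peg3* (0.39), *Slc38a4* (0.25), *Igf2r* (0.20) and *Ascl2* rose as well.

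The imprinted cluster of chromosome 12 went the other way. Its noncoding RNA *Meg3* (chr12:109541001-109571726, plus strand) stood at 79.1 and 78.8 CPM and then at 46.5 and 47.1 CPM (-0.76, SE 0.064, adjusted p 1.11e-08). *Mirg* fell by 0.57 and *Rian* by 0.27, and *Dlk1*, a protein-coding gene of the same cluster, was low, at 2.30 and 2.23 CPM and then 1.37 and 1.51 CPM (-0.67, adjusted p 0.0324). *Grb10* and *Snrpn* fell by 0.28 and 0.39. Of 24 imprinted genes, 8 rose and 6 fell, and the list median was 0.08.

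Pluripotency genes split. In a short list of 9 of them 2 rose and 1 fell, with a median of -0.10. *Tfcp2l1*, a naive pluripotency factor downstream of LIF, stood at 264 and 249 CPM at 24 h and at 349 and 321 CPM at 36 h (log2 fold change 0.38, SE 0.049, adjusted p 4.87e-06). *Nanog* stood at 589 and 571 CPM and then at 670.4 and 648 CPM (0.18, SE 0.037, adjusted p 0.00102), and it was at 0.08 (adjusted p 0.243) under total-count scaling. *Zfp42*, which encodes REX1 and marks naive ESCs, stood at 266 and 258 CPM and then at 229 and 218 CPM (-0.23, SE 0.041, adjusted p 0.000209).

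The other 6 of them did not pass. *Sox2* stood at 263 and 263 CPM and then at 254 and 235 CPM (-0.11, adjusted p 0.103), and passed under total-count scaling at -0.21 (-0.12 when that left out mitochondrial genes) and without replicate 1 of 36 h at -0.16. *Klf4* was at -0.13, *Prdm14* at -0.13 and *Tbx3* at -0.10, of which the first 2 passed under total-count scaling alone. *Sall4* was at 0.03, and at -0.08 under total-count scaling. *Nr0b1*, which encodes DAX1, a partner of OCT4, stood at 10.3 and 11.8 CPM at 24 h and at 10.3 and 11.2 CPM at 36 h (-0.04, adjusted p 0.846), after a fall of 0.93 over the 12 h before.

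Of a further 20 pluripotency genes 11 fell and none rose, with a median of -0.17, and over all settings 7 to 18 fell and none rose. *Tdgf1*, the Nodal co-receptor CRIPTO, stood at 380 and 384 CPM and then at 266 and 257 CPM (-0.55, SE 0.047, adjusted p 3.61e-09). *Utf1*, a chromatin factor, stood at 121 and 132 CPM and then at 84.1 and 77.7 CPM (-0.64), and *Gdf3*, a ligand of the Nodal family, at 71.5 and 76.6 CPM and then at 50.4 and 56.6 CPM (-0.47). *Tcl1* (-0.43), *Klf5* (-0.36), *Jam2* (-0.34), *Tdh* (-0.22), *Dppa5a* (-0.21), *Klf2* (-0.18), *Lin28a* (-0.18) and *Nr5a2* (-0.16) made up the other falls. *Esrrb* (-0.10), *Fgf4* (-0.13) and *Trim28* (-0.04) were among those that did not pass.

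The formative epiblast, the stage that follows naive pluripotency, was represented by 11 genes, of which 8 fell and none rose, with a median of -0.47. *Fgf5* (chr5:98254184-98277030, plus strand), the classical marker of primed epiblast, stood at 8.73 and 10.1 CPM at 24 h and at 4.10 and 3.16 CPM at 36 h (log2 fold change -1.35, SE 0.14, adjusted p 4.96e-08). *Otx2*, a homeobox factor that works with OCT4 in primed cells, stood at 24.6 and 24.0 CPM and then at 15.8 and 15.5 CPM (-0.64). *Lef1* was at 11.4 and 13.7 CPM and then at 7.07 and 7.49 CPM (-0.78), and the DNA methyltransferase *Dnmt3a* at 168 and 179 CPM and then at 133 and 124 CPM (-0.44). *Pou3f1*, *Sall2*, *Zic2* and *Tcf15* fell by 0.50, 0.47, 0.47 and 0.36. *Dnmt3b* (-0.07), *Sox3* (-0.21) and *Fgf15* (-0.41) did not pass. The summed level of the list was 776 and 782 CPM at 24 h and 669 and 668 CPM at 36 h.

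The Nodal inhibitor *Lefty1* was among the 12 largest falls. Nodal is the TGF-beta ligand of the epiblast, and the LEFTY proteins are the inhibitors that it induces. *Lefty1* (chr1:180935022-180938400, plus strand) stood at 40.8 and 43.5 CPM at 24 h and at 17.0 and 18.8 CPM at 36 h (log2 fold change -1.24, SE 0.074, adjusted p 2.85e-12). *Lefty2*, whose start lies 41914 bases from that of *Lefty1*, stood at 69.2 and 64.8 CPM and then at 39.0 and 38.3 CPM (-0.79, SE 0.056, adjusted p 9.54e-11). Among the targets, *Skil* fell by 0.48, and the ligand *Nodal* itself fell by 0.21, from 79.4 and 78.0 CPM to 67.2 and 69.3 CPM. The BMP side was mixed, as *Id2* (0.62), *Smad6* (0.39) and *Bambi* (0.34) rose while *Id1* fell by 0.25 and *Bmp4* (-0.05) and *Id3* (-0.09) did not pass. Over the 12 genes of the list 4 rose, *Smad7* at 0.16 being the fourth, and 6 fell.

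The rest of the largest falls came from genes outside the lists. *Nphs1* and *Kirrel2* encode partner proteins of the kidney slit diaphragm, nephrin and a nephrin-like protein, and lie head to head on chromosome 7 with starts 625 bases apart. *Nphs1* stood at 35.8 and 35.1 CPM and then at 15.3 and 16.8 CPM (-1.15, SE 0.071, adjusted p 6.2e-12), and *Kirrel2* at 10.7 and 10.7 CPM and then at 5.10 and 5.30 CPM (-1.04, SE 0.11, adjusted p 6.92e-08). The noncoding RNA *Miat* (-1.21), the junctophilin *Jph4* (-1.13), *Clca4a* (-1.14), the nucleosome-binding *Hmgn5* (-0.99) and the GDNF receptor *Gfra1* (-0.93) fell as well. The pseudogenes *Gm11914* and *Gm9242* (-1.02 and -1.01) share sequence with expressed genes and are uncertain, and *Gm9242* was not called without replicate 2 of 24 h or without replicate 2 of 36 h (adjusted p 0.0877 and 0.0702). The rRNA gene *CT010467.1* had the largest value of all, -3.94, but its 24 h libraries stood at 598 and 1574 CPM and its 36 h libraries at 87.0 and 53.6 CPM. Near-identical copies of this gene share its reads, and rRNA was depleted from these libraries. Its call (adjusted p 0.0471) was lost without any 1 of the 4 libraries, with adjusted p of 0.0737 to 0.209.

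Markers of other lineages moved in part. Of 14 tested primitive endoderm genes 6 rose and 2 fell, with a median of 0.14. The risers were mostly of the basement membrane, with *Col4a1* at 149 and 149.9 CPM and then 204 and 232 CPM (0.55) and *Col4a2* at 79.9 and 81.0 CPM and then 108 and 113 CPM (0.46). These collagen genes share 1 promoter region on chromosome 8, with starts 21 bases apart. *Dab2*, an endocytic adaptor, rose by 0.76 and *Sparc* by 0.25, and *Gata6*, the factor that specifies primitive endoderm, by 0.88 at 2.66 and 2.58 CPM and then 4.94 and 4.72 CPM. *Sox7* fell by 1.24 at no more than 1.50 CPM in any of the 4 libraries, *Gata4* (-0.05), *Sox17* (-0.16), *Pdgfra* (0.37) and *Hnf4a* (-0.02) did not pass, and *Foxa2* was too low to test. Of 19 laminins, collagens and integrins 8 rose and 3 fell, among them *Col18a1* at 0.32 and *Itga6*, a laminin receptor subunit, at 0.25.

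Of 6 tested mesoderm and streak genes none passed, and each stood under 3.1 CPM in every library. Neural genes went both ways: *Sox1* rose from 2.73 and 3.54 CPM to 5.30 and 5.83 CPM (0.84), *Tubb3* by 0.18, and *Pax6* fell from 5.45 and 5.92 CPM to 3.09 and 3.79 CPM (-0.73), with *Olig2* at -0.49 and *Nes* at -0.16. With total-count scaling *Tubb3* was not called (edgeR, adjusted p 0.284). *Tubb3* lost its call without replicate 1 of 24 h or replicate 2 of 36 h (adjusted p 0.0746 and 0.0984) and *Olig2* without replicate 2 of 24 h or replicate 2 of 36 h (0.101 and 0.106). Fibroblast genes, which would mark feeder or stromal cells, summed to 27.6 and 26.2 CPM at 24 h and to 28.4 and 34.2 CPM at 36 h. *Acta2* (0.30) and *Col1a2* (0.82) were called among the 6 tested, and 4 defining markers (*Dcn*, *Lum*, *Twist2*, *Prrx1*) stood under 0.4 CPM in each of the 4 libraries. *Col1a2* was not called with total-count scaling (edgeR, adjusted p 0.0518) or with only the 4 libraries compared (0.0545). *Acta2* lost its call without either 24 h library (adjusted p 0.0834 and 0.171) and without replicate 2 of 36 h (0.12, adjusted p 0.483), and also with DESeq2 (0.0833), with only the 4 libraries compared (0.0672) and with total-count scaling (0.13), and *Col1a2* lost its call without any of replicate 2 of 24 h and replicates 1 and 2 of 36 h (adjusted p 0.0731 to 0.269). The part of other cells in the trophoblast and endoderm rises was not tested.

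Genes of a rare ESC state that resembles the 2-cell embryo also rose, with 7 of 9 tested called and a median of 0.35, and with 3 to 8 called over the settings. All 9 *Zscan4* entries, pseudogenes included, were called higher, at 0.23 to 0.46. Reads of these near-identical copies cannot be assigned with certainty, so they count as 1 observation. *Zscan4c* stood at 47.2 and 46.9 CPM at 24 h and at 53.8 and 63.7 CPM at 36 h, and its adjusted p was 0.055 without replicate 2 of 36 h.

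ERK feedback genes, which are induced by the MEK-ERK pathway, included 5 falls and no rise among 13, with *Spry4* at 194 and 202 CPM and then 157 and 152 CPM (-0.36), *Etv5* at 288 and 294 CPM and then 236 and 238 CPM (-0.30), *Etv4* at -0.29, *Spry2* at -0.27 and *Dusp4* at -0.23, the last with an adjusted p of 0.0879 without replicate 1 of 36 h. Wnt target genes gave 3 rises (*Wnt6* 0.75, *Cdx1* 0.64, *Axin2* 0.35) and 3 falls (*Lef1* -0.78, *Notum* -0.47, *Tcf7* -0.36) among 15. *Axin2* was not called with DESeq2 (adjusted p 0.0669) or with total-count scaling (edgeR, 0.083). The calls covered 38.5% of the ERK list and 40% of the Wnt list, with medians of -0.19 and 0.17. Of all genes 14.7% were called, and of those with a mean of at least 10 CPM 22.6%. LIF-STAT3 genes gave *Tfcp2l1* as the 1 rise and *Gbx2* (-0.68), *Bcl3* (-0.60) and *Lifr* (-0.15) as falls among 11, while *Socs3*, the direct feedback gene of STAT3, stood at 70.9 and 71.9 CPM and then at 74.5 and 69.8 CPM (0.02). The called share of this list was 36.4% and its median -0.01. Without replicate 1 or 2 of 24 h or replicate 1 of 36 h, *Axin2* and *Lifr* were not called (adjusted p 0.0895 to 0.212 and 0.0666 to 0.124).

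Of 19 glycolysis genes 3 rose and 9 fell, with 5 falls without replicate 2 of 24 h and up to 13 under total-count scaling. The transporters *Slc2a3* and *Slc2a1* (0.25) and *Hk1*, at 64.7 and 59.7 CPM and then 112 and 98.8 CPM (0.76), were the rises. *Hk2*, the other main hexokinase, fell from 243 and 248 CPM to 194 and 184 CPM (-0.38), and the falls lower in the pathway included *Pfkl* (-0.27), *Gapdh* (-0.23), *Ldha* (-0.32) and the lactate exporter *Slc16a3* (-0.33). Of 20 ATF4 and serine synthesis genes 1 was called higher and 3 lower. The 1 called higher was not called with DESeq2 (adjusted p 0.131) or with total-count scaling (edgeR, adjusted p 0.12). These genes were called in 20% of cases, against 14.7% of all genes and 22.6% of genes with a mean of at least 10 CPM. Over the settings 0 or 1 of them were called higher and 2 to 7 lower. The 1 called higher, *Ddit3* (0.33), lost its call without any 1 of the 4 libraries (adjusted p 0.0571 to 0.193), and the amino acid transporter pair *Slc7a5* and *Slc3a2* fell by 0.26 each. Cholesterol synthesis genes gave 5 rises and 1 fall among 21, or 28.6% called against 14.7% of all genes and 22.6% of genes with a mean of at least 10 CPM. The list median was 0.07, and -0.034 to 0.1 over the settings. Under total-count scaling *Pmvk* and *Fdft1* were not called (edgeR, adjusted p 0.182 and 0.317). Without replicate 1 of 24 h *Fdft1*, *Mvd* and *Pmvk* were not called, at log2 fold changes of 0.145, 0.206 and 0.233. *Pmvk* also lost its call without replicate 2 of 24 h (log2 fold change 0.228), and *Pmvk* and *Fdft1* without replicate 2 of 36 h (0.164 and 0.143).

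Proliferation genes gave 1 rise (*Ccnb2*, 0.17) and 3 falls (*Ccnd2* -0.80, *Myc* -0.50, *Mycn* -0.18) among 20, or 4 called against 14.7% of all genes, with 0 to 2 rises and 2 to 7 falls over the settings. *Ccnb2* was not called without replicate 1 of 24 h or replicate 2 of 36 h (adjusted p 0.202 and 0.109), nor *Mycn* without either replicate 2 (0.0962 for that of 36 h). With DESeq2 (adjusted p 0.0554) and with total-count scaling (edgeR, 0.437) *Ccnb2* was not called either. Targets of p53 gave 8 rises and 1 fall among 16, with a median that ran from -0.034 (total-count scaling) to 0.133 over the settings. The rises numbered 4 once replicate 2 of 24 h was left out, 5 once replicate 1 of 36 h was, and 4 (with 3 falls) under total-count scaling. They were led by *Ccng1* (0.36), *Mdm2* (0.32) and *Plk2* (0.31), while *Cdkn1a*, at 32.8 and 34.4 CPM and then 34.8 and 28.1 CPM, did not pass (-0.09). DNA methylation genes gave *Gadd45b* (0.46) as the 1 rise and *Dnmt3a*, *Tet2* (-0.32) and *Dnmt3l* (-0.20) as falls among 10, or 40% called, with a median of -0.11. Targets of the aryl hydrocarbon receptor gave *Cyp1b1* (0.46) and *Nqo1* (0.30) as rises and *Tiparp* (-0.16) as a fall among 6, with *Cyp1a1* at -0.10. The called share was 50% and the median -0.13. *Tiparp* was not called without replicate 1 or 2 of 24 h or replicate 1 of 36 h (adjusted p 0.0523 to 0.124). Of 83 cytosolic ribosomal protein genes 3 rose and 14 fell (median -0.07, with 1 to 35 falls over the settings and 1 to 9 when any 1 library was left out). The calls covered 20.5% of these ribosomal protein genes, against 14.7% of all genes and 22.6% of genes with a mean of at least 10 CPM. Beside the same shares, 20% of the proliferation list was called. Of 63 replication-dependent histone genes 7 rose and none fell (median 0.13), or 11.1% called higher against 8.12% of all genes. Among genes with a mean of at least 10 CPM, 1250 of 9417 were called higher. Over the settings 0 to 9 were called higher and 0 to 2 lower, with 2 higher once replicate 1 of 24 h was left out and 4 once replicate 2 of 36 h was.

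Both mitochondrial rRNA genes rose, but over the settings 1 or 2 of them were called, and without either 24 h library or replicate 2 of 36 h the call of *mt-Rnr2* (0.78) was lost. The rRNA *mt-Rnr1* stood at 10680 and 11490 CPM at 24 h and at 14850 and 15800 CPM at 36 h (log2 fold change 0.47, SE 0.045, adjusted p 4.35e-07). Of the 13 mitochondrially encoded protein genes 4 were called, all higher, and all 13 had positive values, from 0.21 to 0.90. Over the settings 2 to 10 of them were called. Their summed level was 6707 and 7024 CPM at 24 h and 8618 and 11450 CPM at 36 h, so the 36 h replicates differed from each other by more than the 24 h replicates did. From 0 to 18 h the same genes had stood between 5550 and 8851 CPM, so replicate 1 of 36 h lay within that range.

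Whether the pace of change itself shifted was tested with the contrast of the last step against the 12 h before it. This step difference was called in 418 genes (2.20%), of which 145 were more positive in the last step and 273 more negative. In 154 of them the last step alone was called, in 126 the step before alone, in 107 both in opposite directions and in 31 both in the same direction. The 24 h libraries enter both steps with opposite signs, and without replicate 1 or replicate 2 of 24 h the count was 38 or 42, and without replicate 1 or replicate 2 of 12 h it was 178 or 131. Of 160 called changes of 1 or more on the log2 scale over 12 to 24 h, 133 were rises, beside 67 of 142 in the last step. The 142 became 81 with at least 10 counts in every library, 42 with DESeq2 and 4 with glmTreat. How these splits held under other settings is not given here.

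Genes that stopped included early responders. *Slc40a1* (chr1:45908068-45926523, minus strand), the iron exporter ferroportin, had risen by 1.10 over the 12 h before and stood at 80.7 and 78.6 CPM at 24 h and at 81.7 and 74.0 CPM at 36 h (log2 fold change -0.03, adjusted p 0.772, step difference -1.13, SE 0.094, adjusted p 7.71e-08). *Gcm1*, after a rise of 1.20, gave a step difference of -1.24 (SE 0.16, adjusted p 4.11e-05). *Enox1* went on falling at a slower pace, from 30.7 and 29.1 CPM to 24.1 and 24.3 CPM (-0.31) after -1.19 over the 12 h before. *Cdx2* and *Hand1*, in contrast, gave step differences of 0.24 and -0.09 that did not pass (adjusted p 0.689 and 0.804).

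Genes that started in the last step formed the opposite group. *Ndrg1* (chr15:66929321-66969640, minus strand), a stress-induced gene, had stood between 18.97 and 21.3 CPM in the 8 libraries from 0 to 24 h. *Ndrg1* was at 19.8 and 18.97 CPM at 24 h and at 37.0 and 34.2 CPM at 36 h (0.88, SE 0.068, adjusted p 4.62e-10, step difference 1.01, adjusted p 1.59e-05). *Lgals1*, a galectin, sped up, from 144 and 146 CPM to 252 and 246 CPM (0.78) after 0.28 over the 12 h before. Among the falls, *Fgf5* had risen by 0.55 over the 12 h before and gave the most negative step difference of a named protein-coding gene, -1.90 (SE 0.21, adjusted p 7.26e-06), and *Lefty1* gave -1.30 (adjusted p 1.82e-07), *Nphs1* -1.05 and *Meg3* -0.90.

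**Figure D3:**
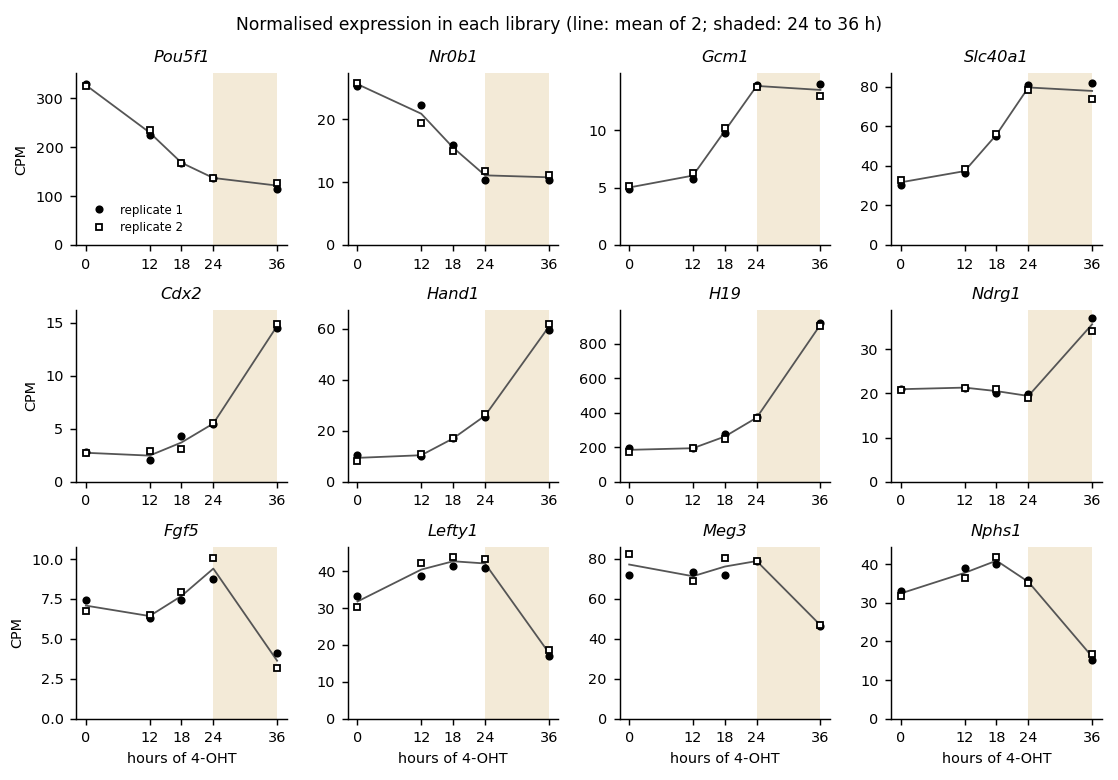
CPM (vertical axes, from 0) in each library against hours of 4-OHT (horizontal axes) for 12 genes, with filled circles for replicate 1, open squares for replicate 2, a line through the means of 2 and shading from 24 to 36 h. *Pou5f1*, *Nr0b1*, *Gcm1* and *Slc40a1* are flat or nearly so in the shaded step, *Cdx2*, *Hand1*, *H19* and *Ndrg1* climb in it, and *Fgf5*, *Lefty1*, *Meg3* and *Nphs1* drop in it.

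The last step was then set beside the first 18 h, a comparison that uses none of the same libraries although both rest on 1 fit. At 18 h against 0 h 1615 genes were called (8.51%), and on leaving out a library 739 (replicate 2 of 0 h), 581 (replicate 1 of 18 h) and 814 (replicate 2 of 18 h). In the last step 673 of these were called again, which is 41.7% of the 18 h calls and 24.2% of the calls of the last step. The direction was the same in 605, with 358 higher and 247 lower both times, and opposite in 68, of which 56 were higher first and lower later and 12 the reverse. The opposite share was 10.1%, and 8.31% to 13.8% over the other scalings, DESeq2 and the replicate block. Across 13462 genes with a mean of at least 50 counts Pearson's r between these changes was 0.33 and Spearman's rho was 0.28. This is a description over genes, which are not independent replicates.

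Genes that turned from early rise to late fall included the Nodal inhibitor *Lefty1*, at 0.43 at 18 h and -1.24 in the last step, and *Nphs1*, at 0.34 and -1.15. *Adamts14*, a procollagen protease, went from 14.2 CPM in the mean at 0 h to 22.6 at 18 h, and then from 24.5 and 26.4 CPM at 24 h to 18.4 and 19.4 CPM at 36 h (0.68 and -0.43). *Slc17a9* (0.50 and -0.51) and *Plekhg5* (0.38 and -0.29) followed the same order. The reverse order was shown by *Ak4*, a mitochondrial adenylate kinase (-0.33 and 0.26), *Basp1* (-0.21 and 0.29), *Tmem64* (-0.23 and 0.29), *St6gal1* (-0.30 and 0.30) and *Rps6ka6* (-0.18 and 0.15). Of these *St6gal1* and *Rps6ka6* lost the late call with total-count scaling (edgeR, adjusted p 0.085 and 0.607). Both also lost it without replicate 1 of 24 h or the same replicate of 36 h, and *Rps6ka6* without replicate 2 of 24 h.

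**Figure D4:**
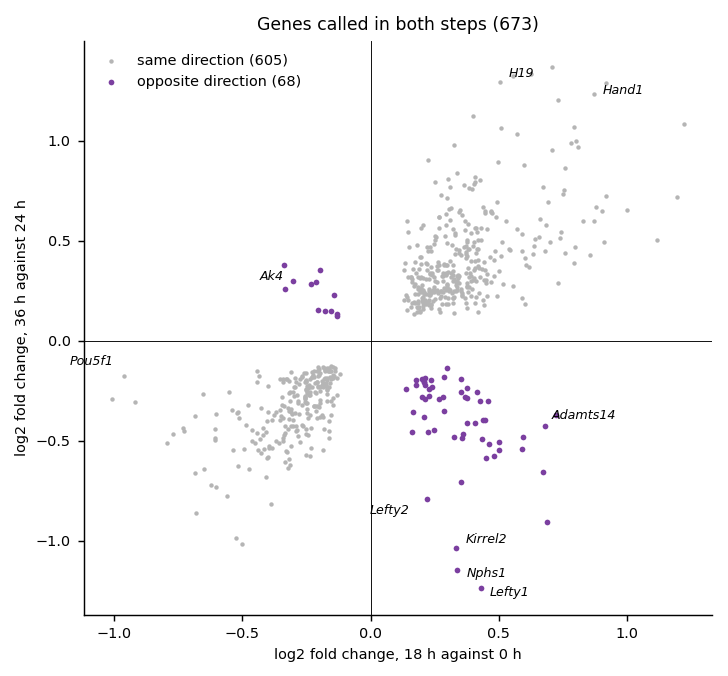
Log2 fold change at 36 h against 24 h (vertical axis) against log2 fold change at 18 h against 0 h (horizontal axis) for the 673 genes called in both, each point 1 gene. The 605 genes in grey lie in the quadrants of like sign and the 68 in purple, *Lefty1* and *Nphs1* among them, in those of opposite sign.

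Noncoding RNA genes, most of them low, were called about as often as low genes in general, and few of their calls were rises. Of 1905 lincRNA, antisense, processed-transcript and TEC genes, the last a class of transcripts that awaits experimental proof, 9 rose and 119 fell, with a median of -0.22 and 70.4% of values below 0, while of 14628 nuclear protein-coding genes 1459 rose and 1058 fell, with a median of 0.02 and 46.3% below 0. Of the 1905 noncoding genes 6.72% were called in either direction, and 7.03% of those calls were rises. Among all tested genes 14.7% were called, 8.12% higher and 6.55% lower. Of genes with a mean under 10 CPM, many of these noncoding genes among them, 6.84% were called, and 44.6% of those calls were rises. Over the settings the noncoding median ran from -0.32 to -0.10. Over the 12 h before, the median of the same 1905 genes was 0.20, and against 0 h it was 0.18 at 24 h and -0.04 at 36 h. The steps share the 24 h libraries, which enter them with opposite signs. Most of these genes are low, with a median level of 0.766 CPM. Pseudogenes, with a median level of 3.87 CPM, had a median log2 fold change of 0.02 with 60 rises and 42 falls among 1801. Antisense and TEC genes overlap or lie near expressed genes, and the strand setting of the counting is not given in the sources used here, so their reads cannot be told apart with certainty from those of their neighbours. The mitochondrial share of reads moved over the same step, and its part in this pattern was not tested.

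**Figure D5:**
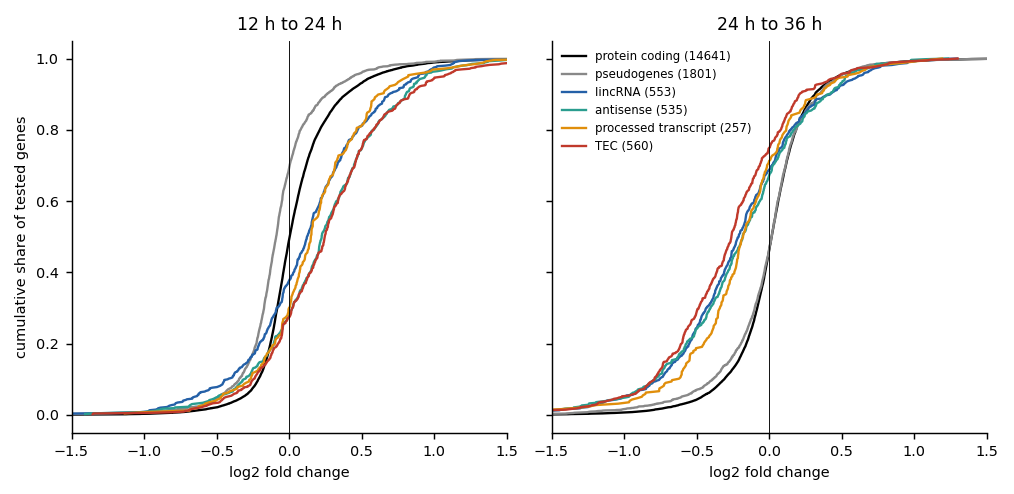
Cumulative share of tested genes (vertical axis) by log2 fold change (horizontal axis) for 6 gene classes, over 12 h to 24 h (left) and 24 h to 36 h (right). The curves of the 4 noncoding classes lie to the right of protein-coding genes in the first step, with a joint median of 0.20, and to their left in the last, with a joint median of -0.22.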

How the data were processed

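Gene expression was measured by RNA-seq in 10 libraries of Oct4Fl/-; CAG CreER ESCs (0, 12, 18, 24 and 36 h, 2 each). Per the labels and the study's methods, the authors depleted ribosomal RNA, made directional libraries, trimmed reads (Trim Galore 0.1.4), aligned them to GRCm38/mm10 (TopHat2 2.1.0) and deposited raw counts per gene (featureCounts 1.5.1). Strand and multimapping settings are not given in the sources used here. The deposited normalised table and the comparisons on merged replicates were not used.

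From the deposited counts, 92 spike-in entries without reads were dropped, 18969 of 48709 genes passed filterByExpr, and all 10 libraries were fitted with edgeR 4.0.16 in R 4.3.3 (TMM, robust quasi-likelihood test, two-sided, Benjamini-Hochberg over all genes tested, called under 0.05, prior count 0.125), with 1 coefficient per time. The standard error is the absolute log2 fold change divided by the square root of F. The procedure was tested on simulated data. Alternatives were RLE size factors, total-count scaling, DESeq2 1.42.0, no filter, at least 10 counts in every library, only the 4 libraries, a replicate block, glmTreat and leaving out each library.

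The members, gene lists and tests were chosen with earlier results of these data known. Named genes were *Pou5f1*, *Cchcr1*, the members of a short pluripotency and a short trophectoderm list, the 12 largest rises and falls (called, mean of at least 50 counts, replicates apart), up to 4 called genes with the smallest p per list, 5 per direction of the step difference and 5 per order of opposite calls. Other members are given as part of their list, and *Rhox* and *S100* genes were named after their values were seen. Some members of the lists are counted but not reported here by name.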

Additional observations from a re-analysis of the deposited data

Results flagged for a closer look

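In 30 of the 124 named genes the change over 24 to 36 h differed from the change over 12 to 24 h by a direct test of the difference. Some were named for this difference itself and others by their calls in the same libraries. Their number therefore follows in part from the choice and is not independent support. Over all tested genes 2.20% were called. Every value here is the log2 change of the last step minus that of the step before, with an adjusted p under 0.05 (edgeR). Since the 24 h libraries enter both steps with opposite signs, a deviation of these libraries alone would move every value. Its part was not tested, and the number of genes called for this difference fell from 418 to 38 or 42 without 1 of the 24 h libraries and to 131 or 178 without 1 of the 12 h libraries.

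The last step was less negative for *Pou5f1* (0.572), *Nr0b1* (0.886), *Enox1* (0.879) and *Lifr* (0.340), which had fallen before. It was more positive for *3830417A13Rik* (0.847), *H19* (0.359), *Igf2* (0.549), *Lgals1* (0.503), *Rhox6* (0.649) and *Krt18* (0.413), which had already risen, and for *Ndrg1* (1.010), *mt-Rnr1* (0.719), *Tmem64* (0.313), *Basp1* (0.510), *Gm6763* (0.549) and *Itga6* (0.283), which had not. Genes that had risen before and were not called in the last step were *Cchcr1* (-0.758), *Gcm1* (-1.236) and *Slc40a1* (-1.126). Falls in the last step after no fall or a rise gave *Fgf5* (-1.897), *Lefty1* (-1.299), *Lefty2* (-0.677), *Nphs1* (-1.054), *Clca4a* (-1.340), *Slc17a9* (-0.668), *Adamts14* (-0.934), *Plekhg5* (-0.506), *Dusp4* (-0.428), *Notum* (-0.756) and *Meg3* (-0.900).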

How the results depend on the processing

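The 2784 calls became 1671 with DESeq2 and 1491 to 2194 on leaving out 1 of the 4 libraries. Rises (1541) were 682 with total-count scaling, 914 with DESeq2 and 851 to 1198 on leaving out a library, and falls (1243) were 3202, 757 and 637 to 1064. Large changes (142) were 42 with DESeq2, 81 with at least 10 counts in every library and 4 with glmTreat against a log2 fold change of 1. The share of rises (55.35%) was 17.56% with total-count scaling, 48.18% when that left out mitochondrial genes (added after seeing the data), 50% without a filter, 53.17% with at least 10 counts, 53.27% with only the 4 libraries and 51.5% to 62.59% on leaving out a library. The step difference (418) was called in 1382 genes with total-count scaling, 165 with DESeq2, 668 without a filter and 38 to 514 on leaving out a library. The 18 h calls (1615) were 989 with DESeq2 and 581 to 2006 on leaving out a library. *Pou5f1* ran from -0.245 to -0.103 on leaving out a library. Signs changed in genes near 0: *Sall4* to -0.082 with total-count scaling and, on leaving out a library, *Cchcr1* (-0.026 to 0.014, and 0.003 without replicate 1 of 36 h), *Nr0b1* (-0.134 to 0.049, and 0.022), *Gcm1* (-0.095 to 0.023) and *Slc40a1* (-0.105 to 0.040). A replicate block called 2813 genes and left each of 123 named results on its side of the threshold; replicate numbers did not pair the samples, with a correlation of deviations of 0.051 between 24 and 36 h. Of the named results 11 were no longer called with total-count scaling, 4 with DESeq2 and 10 to 14 on leaving out a library.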

Other observations

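As a share of the nonmitochondrial reads, TEC genes took 0.0876% and 0.102% at 0 h, 0.108% and 0.107% at 24 h and 0.0838% and 0.0881% at 36 h. Antisense genes took 0.113% and 0.129%, then 0.139% and 0.138%, then 0.120% and 0.127%. Of these 3 times, the 24 h libraries were the highest in both classes, and at 36 h the antisense shares lay within the range of the 0 h libraries. The snoRNA genes, which are processed from introns of host genes, gave 10 falls and no rise among 144. That is 6.94%, near the 6.55% of all tested genes that were called lower, while 8.12% of all were called higher. Their median was -0.29, after 0.07 over the 12 h before. Over the settings 3 to 20 of them fell and none rose, with a median from -0.396 to -0.037.

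Among all tested genes 8.12% were called higher. Chromosome 12 had the highest share of rises among the autosomes (12.0% of 656 tested genes) and chromosome 17 the lowest (5.79% of 847). Chromosomes 7 (6.30%) and 14 (6.52%) lay close to the latter. The X chromosome had 10.8% of 710, with a median of 0.03.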
